A study of Bos taurus with 12 samples.

Results

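DGAT2 and 7 other genes of triglyceride synthesis and storage were followed in bovine endometrium on 4 days. The genes were DGAT1, DGAT2, GPAM, AGPAT2, LPIN1, PLIN2, PNPLA2 and LIPE, taken by the gene name that the array files give each probe. That name was found on 15 of 43653 probes, which belonged to 7 of the 8 genes, and 12 of the 15 probes were bright enough to be tested. No probe carried the name LPIN1. DGAT2 was chosen by its signal on these arrays, which differed strongly between days, and the other genes by their place in the same pathway, so the levels of DGAT2 are given as a description without a test.

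The samples were endometrial biopsies of 3 cows, labelled as fertile, taken on days 0, 2, 7 and 14 after povidone-iodine (PVP-I), an iodine-releasing antiseptic, had been given into the uterus. All 4 groups carried the treatment label, with 3 arrays each from the same 3 cows, and each sample's total RNA went onto a single-colour (Cy3) Agilent array. No untreated cow was among the samples, and the labels give neither the stage of the oestrous cycle nor whether the day 0 biopsy preceded the antiseptic, so that the antiseptic, time, the cycle and repeated biopsy cannot be told apart. The design text says that pieces came in turn from the left and right uterine horns, without saying which sample came from which.

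Triacylglycerol, the storage form of fat, is built on glycerol 3-phosphate in the endoplasmic reticulum. Acyltransferases add the first and second fatty acid, a lipin phosphatase removes the phosphate to give diacylglycerol, and DGAT1 or DGAT2 adds the last fatty acid. The product is packed into lipid droplets coated by perilipins, from which lipases release the fatty acids again. In the uterus, lipid droplets are known from epithelial and stromal cells.

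DGAT2 was read by 3 probes, and their sequences are shown because they define which parts of the transcript were measured. All lie on the plus strand of chromosome 15 of the build given in the file headers, Btau_3.1. The probe that starts at base 1344 of the transcript covers chr15:54748757-54748816, and the other 2 start at bases 2302 and 2322, from chr15:54749709 and from chr15:54749729. These 2 share 40 of their 60 bases and are therefore not independent readings, and the last 30 shared bases are given in capitals. The longest run that any DGAT2 probe shares with a probe of DGAT1 or of MOGAT1, an acyltransferase of the DGAT2 family described further on, is 8 bases on either strand. Whether the probes lie in coding or untranslated sequence was not settled here.
DGAT2, first 30 bases of the probe at base 1344 (chr15:54748757-54748786): tcaagtgctttttgttctgtaaatttggaa
DGAT2, 30 bases shared by the probes at bases 2302 and 2322 (chr15:54749739-54749768): TCACATTAGCATCTTGCTGCTGATGATTGG
MOGAT1, first 30 bases of its probe (chr2:115367043-115367072): tgtcttagaagtcatgcaagagagcgagag

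The sample names of the arrays had to be settled first, since the deposited files disagree on 10 of 12 arrays. The columns of the authors' value table each matched 1 scanner file over all probes, and the next best file reached a correlation of at most 0.52, but 2 arrays alone were linked to the same sample in both. The value table's names were used. Read this way each cow filled 1 slide and each day 1 position on it, so that cow and slide, and day and position, cannot be told apart. A check for signals private to a cow (all 4 of its arrays beyond the other 8 by 8-fold or more) found 2, 12 and 6 probes for cows 1, 2 and 3 under these names, and 0 for each cow under the file links. Under these names a cow is also a slide, whereas the file links spread each cow over slides. The check therefore cannot tell signals of a cow from those of a slide, and it does not settle the names. The share of probes well above background was 71.3 to 76.0%, but 63.2% on the day 2 array of cow 3.

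DGAT2, which adds the last fatty acid to diacylglycerol, was high on day 0 and lower on each later day in all 3 cows. All values below are log2 signals with the 75th percentile of the array set to 0, given for cows 1, 2 and 3 in that order. The brightest probe, at base 1344, had 0.84, 0.52 and 0.78 on day 0. It had -1.66, -1.70 and -2.04 on day 2. It had -2.14, -2.38 and -2.46 on day 7, and -2.25, -1.75 and -2.58 on day 14. Each of the 9 later arrays thus lay below all 3 of day 0, as they did for 3.85% of 12896 genes with 1 probe each. This is the pattern for which the gene was chosen. The probe was well above background on 12 of 12 arrays, with processed intensities from 150.8 to 1972, so the low values are measured levels.

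The log2 change of this probe against day 0 was -2.52 ± 0.21 on day 2, -3.04 ± 0.21 on day 7 and -2.91 ± 0.21 on day 14 (SE, n = 3 cows). That made the signal 5.72-fold lower on day 2, 8.24-fold lower on day 7 and 7.51-fold lower on day 14. Cow by cow, the change on day 2 was -2.50, -2.22 and -2.82, on day 7 it was -2.98, -2.90 and -3.25, and on day 14 it was -3.09, -2.27 and -3.37. No cow departed from the others by as much as the day effect. In the order of the mean levels, day 0 came first (0.72), then day 2 (-1.80), day 14 (-2.19) and day 7 (-2.33). The arrays of day 7 all lay below those of day 2 (log2 change -0.53 ± 0.21), whereas the day 14 arrays overlapped both day 2 and day 7 (log2 change of day 14 against day 7 0.13 ± 0.21).

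**Figure D1:**
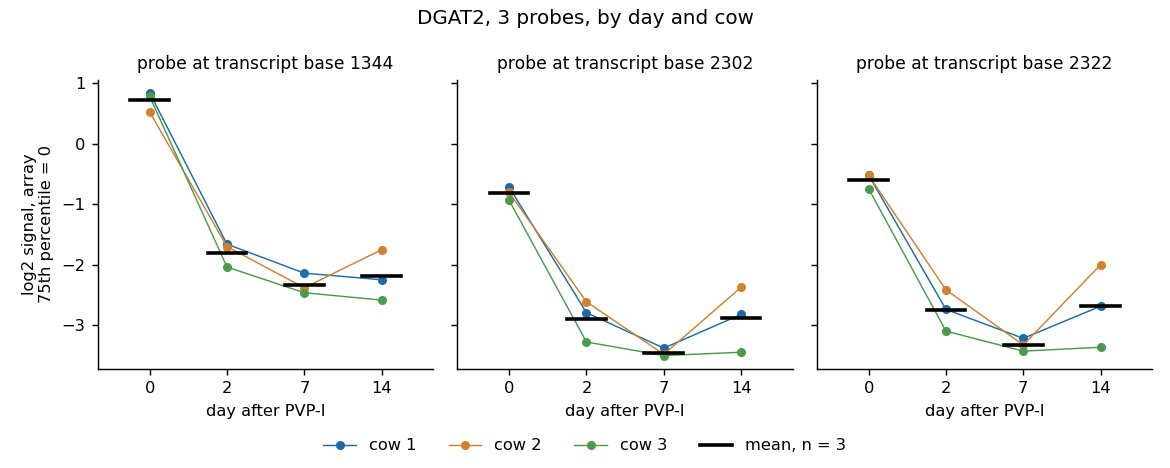
Log2 signal (vertical axis, 75th percentile of the array at 0) of the 3 DGAT2 probes on days 0, 2, 7 and 14 (horizontal axis, spaced evenly), with 1 coloured point and line for each cow and a black bar for the mean of 3 cows. On all 3 probes the day 0 arrays lie above every later array, and on day 14 the cows spread, with cow 2 highest.

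The 2 overlapping probes gave the same order of day 0 above the later days. The probe at base 2322 had -0.52, -0.52 and -0.74 (day 0), -2.74, -2.42 and -3.10 (day 2), -3.22, -3.33 and -3.43 (day 7), and -2.69, -2.00 and -3.36 (day 14). Its log2 changes against day 0 were -2.16 ± 0.23, -2.73 ± 0.23 and -2.09 ± 0.23 on days 2, 7 and 14. The probe at base 2302 had log2 changes of -2.08, -2.63 and -2.06 on the same days. On both, the level on day 14 was above that on day 7 in 3 of 3 cows, by 0.64 ± 0.23 and 0.57 ± 0.21 on the log2 scale, although the ranges overlapped and cow 3 moved little (-3.43 on day 7 and -3.36 on day 14 at base 2322). The brightest probe was higher on day 14 than on day 7 in 1 of 3 cows. Over the 12 arrays the brightest probe correlated with the other 2 at 0.977 and 0.968 (Pearson, probe at 2302 and at 2322), a description, since the points share the arrays and the cows.

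The DGAT2 pattern depends on the sample names. The 3 high arrays were those in the first position of the 3 slides. The file links assign them to cow 1 on day 0, cow 2 on day 2 and cow 3 on day 7. Under the links the mean of the brightest probe was -0.99 on day 0, -1.14 on day 2, -1.12 on day 7 and -2.36 on day 14, and the log2 change against day 0 was -0.15 ± 1.11 on day 2, -0.13 ± 1.11 on day 7 and -1.38 ± 1.11 on day 14.

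A biopsy is a mixture, and fewer cells of a type and less RNA per cell cannot be told apart in it. Of the 8 markers of fat cells, ADIPOQ, LEP and CIDEC were not above background and PLIN4 had no probe of that name. Of the 4 measured ones 0 passed the test on any day, which does not show that their levels were alike. On day 2 FABP4 lay above all of day 0, with log2 changes of 1.085, 1.877 and 6.34 (limma adjusted p = 0.146). PLIN1 lay below all of day 0 on that day (log2 change -0.45, limma adjusted p = 0.168). The other measured ones overlapped day 0 on day 2. PLIN1, PLIN4, CIDEC and FABP4 of this list also belong to the lipid lists below. The summed level of this list ran from 4.15 to 5.35 on day 0, 5.94 to 9.47 on day 2, 4.13 to 18.3 on day 7 and 4.84 to 9.30 on day 14 (linear, 75th percentile of the array at 1). These sums follow CFD (complement factor D), whose log2 signal was 2.20, 2.02 and 2.39 on day 0 and 4.17 in cow 1 on day 7. The median log2 level of the 4 measured markers was -5.14 to -4.70 on day 0, -4.44 to -2.01 on day 2, -4.80 to -3.43 on day 7 and -4.60 to -3.52 on day 14. Of 8 epithelial and 8 stromal markers 0 passed the test on any day. The epithelial sums were 58.1 to 71.4, 30.6 to 95.3, 45.3 to 76.8 and 56.9 to 73.5 on days 0, 2, 7 and 14, and the stromal sums 213 to 220, 231 to 295, 255 to 306 and 219 to 373. Over all 12896 genes, 1.90% rose on day 2 and 10.9% on day 7, and 0.109% passed the test in either direction on day 14. The next counts are to be read beside these shares. Of 8 smooth muscle markers 1 rose on day 2 and 4 on day 7, and their sums ran from 62.2 to 85.8 on day 0, 88.9 to 523 on day 2, 181 to 387 on day 7 and 84.5 to 405 on day 14. ACTA2, MYH11 and DES of this list were highest in cow 3 on days 2 and 14. MYH11 had 3.14, 2.81 and 5.86 on day 2, and 3.29, 1.70 and 5.65 on day 14. Of 8 macrophage markers 1 rose on day 2, 3 on day 7 and 1 on day 14, with sums of 3.69 to 4.38, 10.5 to 11.2, 5.32 to 18.0 and 8.88 to 15.4. The call of day 14 was GPNMB, with log2 signals of 2.67, 3.28 and 2.69 on that day. The median log2 level of the macrophage list was -1.90 to -0.76 on day 14, overlapping the -1.89 to -1.29 of day 0, and the median log2 change was 0.36. Of 8 endothelial markers 1 rose on day 2 and 2 on day 7, of 8 T cell markers 1 rose on day 7, and of 6 measured neutrophil markers 1 rose on each of days 2 and 7. All tests were limma's at an adjusted p of 0.05, and the part of these lists in the DGAT2 levels was not tested. Of 6 measured genes that mark endometrium or its hormone state, 4 rose on day 7, among them the progesterone receptor PGR (log2 change 1.74, limma adjusted p = 0.00946).

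None of the 6 other genes with a probe passed the test in any comparison. Counted over all 33539 probes, 2.52% were called on day 2, 18.2% on day 7 and 0.131% on day 14 against day 0, 0.486% on day 7 against day 2, 0.146% on day 14 against day 7, and 7.78% by the F-test of any difference among the 4 days. On day 2 against day 0, 0 of 6 passed (limma, Benjamini-Hochberg adjusted p over 33539 probes at 0.05), while 2.90% of 12896 genes did. On day 7 against day 0, 0 of 6 passed and 19.2% of all genes did. On day 14 against day 0, 0 of 6 passed and 0.109% of all genes did. The same held for day 7 against day 2 (0.527% of all genes), for day 14 against day 7 (0.140%) and for the F-test (8.27%). At an unadjusted p under 0.05, 1 of 6 passed in each comparison except day 14 against day 7, with 0. The share of all genes at that level is not given, so nothing is read from this count. The median log2 change of the 6 was -0.02 on day 2, -0.19 on day 7 and 0.13 on day 14, beside 0.01, 0.05 and 0.04 over all genes. A p that misses the threshold does not show that their levels were alike.

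GPAM, the mitochondrial enzyme that adds the first fatty acid to glycerol 3-phosphate, had no difference between days that passed the test. Its brightest probe (chr26:33097869-33097928, minus strand) had -1.93, -2.19 and -1.90 (day 0), -2.18, -2.49 and -1.72 (day 2), -1.88, -2.82 and -1.67 (day 7), and -2.08, -2.48 and -1.79 (day 14). Cow 2 was the lowest on each day and the days overlapped. The log2 changes against day 0 were -0.12, -0.12 and -0.11 on days 2, 7 and 14, each with an SE of 0.19 (lowest adjusted p = 0.695, limma). A further probe had log2 changes of -0.12, -0.08 and 0.15, and the third, above background on 1 of 12 arrays, was not tested.

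AGPAT2 adds the second fatty acid and is the enzyme whose loss causes a congenital lipodystrophy in people. Its probe (chr11:108012058-108012117, minus strand) had 2.33, 2.20 and 2.15 (day 0), 2.74, 2.72 and 2.46 (day 2), 2.05, 2.77 and 2.21 (day 7), and 2.38, 2.80 and 2.71 (day 14). The day 2 and day 14 arrays lay above all of day 0, and day 7 overlapped it. The share of all genes separated in this way was not counted, so nothing is read from it. The log2 change was 0.41 ± 0.19 on day 2 (adjusted p = 0.271), 0.12 ± 0.19 on day 7 (0.700) and 0.40 ± 0.19 on day 14 (0.281, limma), so no difference passed.

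LPIN1, the phosphatidate phosphatase that makes diacylglycerol, had no probe under its own name. The files describe 3 probes as lipin 1 under an Ensembl transcript identifier. They were well above background on 1, 0 and 0 of 12 arrays, and none was tested.

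DGAT1, the other enzyme of the last step and unrelated to DGAT2 in sequence, had no such step between day 0 and the later days. Its brightest probe (chr14:446437-446496, plus strand) had -2.00, -1.60 and -2.19 (day 0), -1.83, -1.68 and -2.24 (day 2), -1.78, -1.61 and -1.41 (day 7), and -2.12, -1.42 and -1.51 (day 14). All days overlapped. The log2 changes against day 0 were 0.01 on day 2, 0.33 on day 7 and 0.25 on day 14, each ± 0.22 (adjusted p = 0.981, 0.329 and 0.553, limma). A further probe had log2 changes of 0.12 on each day with no call. The third was well above background on 1, 2, 0 and 2 of 3 arrays on days 0, 2, 7 and 14, too few for a change to be given, and had no call. Over the 12 arrays DGAT1 and DGAT2 had a Pearson correlation of -0.35, a description over arrays that share cows and slides.

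PLIN2 (perilipin 2, formerly adipophilin), which coats lipid droplets outside fat tissue, was the only one of the 6 to lie below day 0 on all 9 later arrays. Of 12896 genes with 1 probe each, 3.85% did so. The PLIN2 probe (chr8:26640754-26640813, plus strand) had 1.13, 0.91 and 1.10 (day 0), 0.84, 0.53 and 0.48 (day 2), 0.73, 0.52 and 0.26 (day 7), and 0.89, 0.05 and 0.19 (day 14). The highest later value, 0.89, belonged to cow 1 and was just under the lowest of day 0. The log2 change was -0.43 ± 0.18 on day 2 (adjusted p = 0.216), -0.54 ± 0.18 on day 7 (0.0659) and -0.67 ± 0.18 on day 14 (0.102, limma), which did not pass. With background correction by normexp and quantile normalisation the changes on days 7 and 14 were -0.59 and -0.77 and passed (limma adjusted p = 0.00718 and 0.0253). That setting called more probes on day 14 than the main fit did, and PLIN2 passed under no other alternative.

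PNPLA2 (adipose triglyceride lipase), which takes the first fatty acid off the stored triacylglycerol, had 0.91, 0.76 and 0.57 (day 0), 0.75, 1.16 and 0.20 (day 2), 0.33, 0.26 and 0.87 (day 7), and 0.67, 0.84 and 0.78 (day 14). The cows moved in different directions and the days overlapped. The log2 changes against day 0 were -0.04, -0.26 and 0.02, each ± 0.27 (lowest adjusted p = 0.526, limma).

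LIPE (hormone-sensitive lipase), which acts on diacylglycerol, had the largest SE of the 6. Its brightest probe (chr18:50656584-50656643, plus strand) had -4.49, -4.74 and -5.50 (day 0), -3.74, -3.78 and -4.94 (day 2), -5.49, -5.86 and -4.61 (day 7), and -4.54, -5.33 and -4.07 (day 14). Cow 3 was the lowest on days 0 and 2 and the highest on days 7 and 14, and the days overlapped. The log2 changes against day 0 were 0.76, -0.41 and 0.26, each ± 0.49, and day 7 against day 2 gave -1.17 ± 0.49 (adjusted p = 0.259, limma). Without cow 3 the change on day 7 against day 0 was -1.06 (adjusted p = 0.0331) and that on day 7 against day 2 -1.92 (0.0276, limma). Cow 3, left out there, was the only cow to rise in these comparisons (log2 0.89 and 0.33). Without cow 1, or without cow 2, LIPE did not pass in either. The gene's other 2 probes were above background on 1 and 0 of 12 arrays and were not tested.

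**Figure D2:**
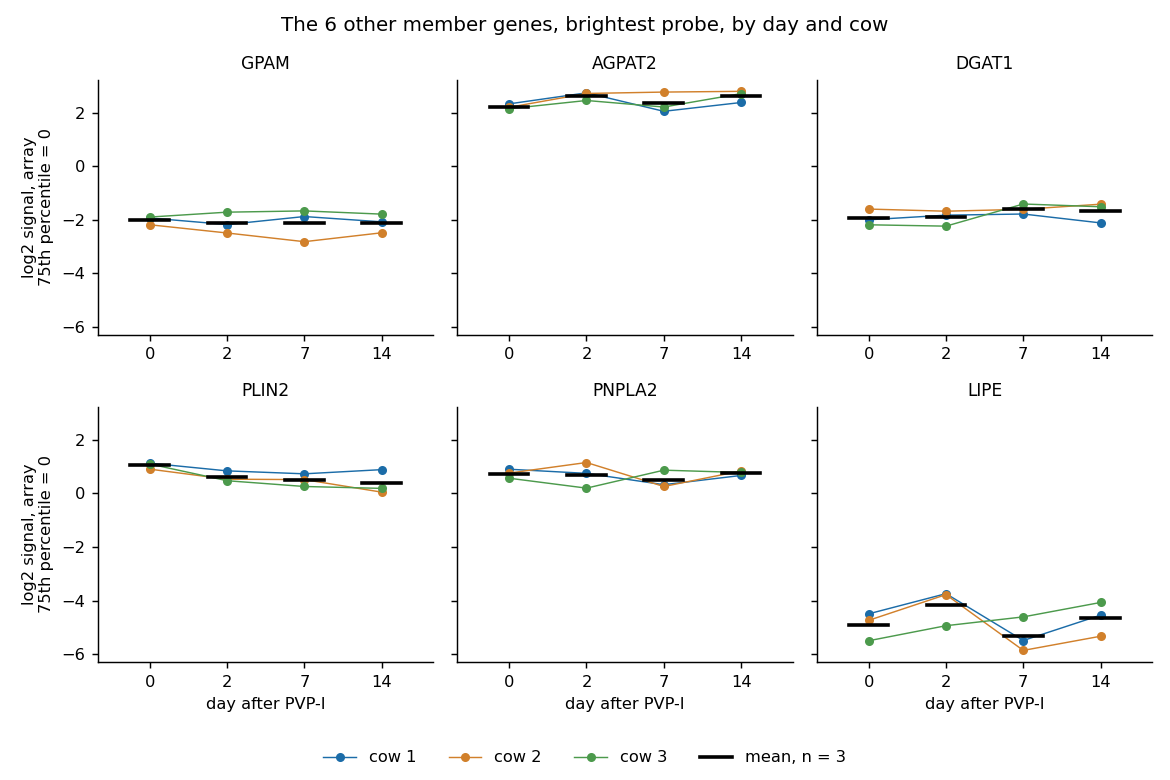
Log2 signal (vertical axis, 75th percentile of the array at 0, the same range in each panel) of the brightest probe of GPAM, AGPAT2, DGAT1, PLIN2, PNPLA2 and LIPE on days 0, 2, 7 and 14 (horizontal axis), with 1 coloured line for each cow and a black bar for the mean of 3 cows. None of the 6 shows a step of the size seen for DGAT2, and PLIN2 alone has every later array below day 0. Levels of different probes cannot be compared with each other.

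The rest of lipid metabolism was read from 7 lists with 88 genes, of which 86 had a probe and 83 were bright enough. On day 2, 2 of the 83 rose and 2 fell (4.82%), beside 1.90% and 1.00% of all genes. On day 7, 8 rose and 9 fell (20.5%), beside 10.9% and 8.32% of all genes. On day 14, 0 passed the test (beside 0.109% of all genes), with 18 at an unadjusted p under 0.05. The median log2 change of the 83 genes was 0.05 on day 2, -0.25 on day 7 and -0.10 on day 14. Nothing is read from these shares about the lists as a whole. Nor is anything read from the unadjusted counts of this paragraph, which have no share of all genes beside them. Without cow 1, or without cow 2, 0 of the 83 passed on any day (13, 18 and 14 without cow 1 and 12, 19 and 11 without cow 2 at an unadjusted p under 0.05, limma). Without cow 3 the counts were 2, 19 and 0 on days 2, 7 and 14, and under the file links they were 0, 0 and 1. Without the day 2 array of cow 3, 1 gene passed on day 2. Of the genes named below, MOGAT1, FABP5 and DGKI on day 2 and GPD1L, MGLL, FABP5, CEBPB, CPT1B and ETFDH on day 7 had the opposite sign under the file links, without passing.

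In glycerolipid assembly, 1 of 14 measured genes rose and 1 fell on day 2, and 2 rose and 1 fell on day 7. Of all genes, 1.90% rose and 1.00% fell on day 2, and 10.9% rose and 8.32% fell on day 7. MOGAT1, a monoacylglycerol acyltransferase of the DGAT2 family that also makes diacylglycerol, had -1.92, -2.32 and -2.50 (day 0), -5.05, -5.72 and -6.95 (day 2), -6.49, -6.45 and -5.51 (day 7), and -3.63, -5.23 and -5.51 (day 14). All 9 later arrays lay below day 0. MOGAT1 fell by 3.66 ± 0.52 on the log2 scale on day 2 (adjusted p = 0.0186) and by 3.91 ± 0.52 on day 7 (0.00435), and its change on day 14 was -2.55 ± 0.52 (0.0709, limma). Its only probe was well above background on 3, 2, 1 and 3 of 3 arrays on days 0, 2, 7 and 14, so the low values on days 2 and 7 are poorly measured. Over the 12 arrays it correlated with DGAT2 at 0.859 (Pearson), a description that rests in part on these poorly measured values. The probe named MOGAT2, for a further enzyme of that family, had log2 changes of 0.54, 0.45 and 0.56 on days 2, 7 and 14 with no call.

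GK (glycerol kinase), which makes glycerol 3-phosphate from glycerol, rose by 1.64 ± 0.32 on day 2 (adjusted p = 0.0420, limma), in 3 of 3 cows, and its log2 changes on days 7 and 14 were 0.89 and 0.33, which did not pass. A further probe of that symbol rose by 1.59 on day 2, but the files place the gene's other 2 probes on chromosomes 6 and 2, so which copy each reads is uncertain. GPD1L, a relative of glycerol 3-phosphate dehydrogenase, rose by 0.70 ± 0.18 on day 7 (0.0353) on 1 of 2 probes, the other having 0.24. AGPAT1, an acyltransferase of the second step like AGPAT2, also rose on day 7, by 0.49 (0.0488).

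Of 13 measured genes of droplet coat and droplet formation 0 passed the test on day 2, beside 2.90% of all genes. On day 7, 1 rose, beside 10.9% of all genes. It was AUP1, a protein of the endoplasmic reticulum and of lipid droplets, with a log2 change of 0.64 ± 0.13 (adjusted p = 0.0164, limma), and its other 2 probes rose as well, by 0.65 and 1.18. PLIN1 and PLIN3, perilipins like PLIN2, had changes of -0.04 and -0.18 on day 7 and did not pass.

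Of 11 measured genes of lipolysis 0 passed the test on day 2, beside 2.90% of all genes. On day 7, 2 rose, beside 10.9% of all genes. G0S2, an inhibitor of PNPLA2, had 2.20, 2.46 and 2.68 (day 0), 0.99, 1.00 and 0.81 (day 2), 4.93, 4.45 and 3.54 (day 7), and 2.77, 3.98 and 1.23 (day 14). Its day 2 arrays lay below, and its day 7 arrays above, all of day 0, and day 14 overlapped day 0. The log2 change was -1.52 ± 0.52 on day 2 (adjusted p = 0.152), 1.86 ± 0.52 on day 7 (0.0422) and 3.38 ± 0.52 on day 7 against day 2 (0.0464, limma), with like values on the gene's other probe. MGLL (monoglyceride lipase), which releases the last fatty acid, rose by 1.60 ± 0.29 on day 7 (0.0109), in 3 of 3 cows. Its probe was well above background on 2, 2, 3 and 3 of 3 arrays on days 0, 2, 7 and 14, so the day 0 level is poorly measured.

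Of 15 genes of fatty acid uptake and activation 1 rose on day 2, beside 1.90% of all genes. On day 7, 2 rose and 3 fell, beside 10.9% and 8.32% of all genes. SLC27A6, a fatty acid transport protein, had 2.11, 2.12 and 2.45 on day 0 and 2.26, 2.23 and 0.81 on day 2. It had -3.25, -1.58 and -1.43 on day 7, and -0.05, -3.87 and -1.47 on day 14. Days 7 and 14 lay below days 0 and 2. SLC27A6 fell by 4.31 ± 0.92 on day 7 (adjusted p = 0.0182), and its change on day 14 was -4.02 ± 0.92 (0.0845, limma). Its other 2 probes fell too on day 7, with log2 changes of -4.48 and -2.80. The probe with -2.80 was well above background on 3, 2, 1 and 1 of 3 arrays on days 0, 2, 7 and 14. The size of its fall is therefore poorly measured.

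FABP5, a fatty acid binding protein, rose by 2.52 ± 0.51 on day 2 (adjusted p = 0.0450, limma) and 1.75 ± 0.51 on day 7 (0.0468) on its brightest probe, whereas its other 2 probes did not pass (1.05 and 0.73 on day 2). ACSL5, which couples fatty acids to coenzyme A, rose by 1.57 ± 0.26 on day 7 (0.00897), and its other 2 probes rose by 1.97 and 2.17. The probe with 2.17 was well above background on 1, 2, 3 and 3 of 3 arrays on days 0, 2, 7 and 14. Its day 0 level is therefore poorly measured. SLC27A3, a relative of SLC27A6, and VLDLR, a receptor for triglyceride-rich lipoproteins, fell on day 7, by 1.33 and 1.23.

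Of 10 measured genes of other fates of diacylglycerol, 1 fell on day 2 and on day 7, beside 1.00% and 8.32% of all genes. DGKI, a kinase that turns diacylglycerol into phosphatidic acid, had 2.34, 2.65 and 1.86 (day 0), -1.60, -1.21 and -3.17 (day 2), -3.54, -4.34 and -4.21 (day 7), and 1.47, -2.61 and -2.55 (day 14). Every later array lay below day 0, and on day 14 cow 1 was far above the other 2. DGKI fell by 4.28 ± 0.81 on day 2 (adjusted p = 0.0382) and fell by 6.31 ± 0.81 on day 7 (0.00411), with -3.51 ± 0.81 on day 14 (0.0854, limma). A further probe fell too, with -4.40 and -6.74 on days 2 and 7. That probe was well above background on 3, 2, 2 and 3 of 3 arrays on days 0, 2, 7 and 14. Its low values are therefore poorly measured.

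Of 10 transcription factors and co-activators of lipid storage 1 rose and 1 fell on day 7, beside 10.9% and 8.32% of all genes. PPARGC1A, a co-activator of oxidative metabolism, fell by 1.67 ± 0.37 (adjusted p = 0.0203, limma), and its other 2 probes fell by 1.66 and 1.52. CEBPB, a factor of early fat cell differentiation and of inflammation, rose by 0.90 ± 0.18 (0.0152), with 1.10 and no call on a further probe. PPARG, the main regulator of fat cell genes, had -1.37 on day 7 (0.0772), and SREBF1 had -0.37, neither of which passed.

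Of 10 genes of fatty acid oxidation 0 rose and 3 fell on day 7, beside 10.9% and 8.32% of all genes. CPT1B, which loads fatty acids onto carnitine for entry into mitochondria, fell by 1.55 ± 0.34 (adjusted p = 0.0208, limma). ETFDH, which passes electrons of fatty acid oxidation to the respiratory chain, fell by 1.20 ± 0.26 (0.0184), and ACADM, the medium-chain acyl-CoA dehydrogenase, by 0.97 ± 0.19 (0.0135). ACADM had 3.30, 3.24 and 3.38 (day 0), 2.19, 2.53 and 2.27 (day 7), and 2.72, 2.25 and 2.69 (day 14), so day 7 and day 14 both lay below day 0. Its other 2 probes fell by 1.21 and 1.19 on day 7, the other probe of CPT1B fell by 1.52, and those of ETFDH had changes of -1.03, which passed, and -0.22, which did not.

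**Figure D3:**
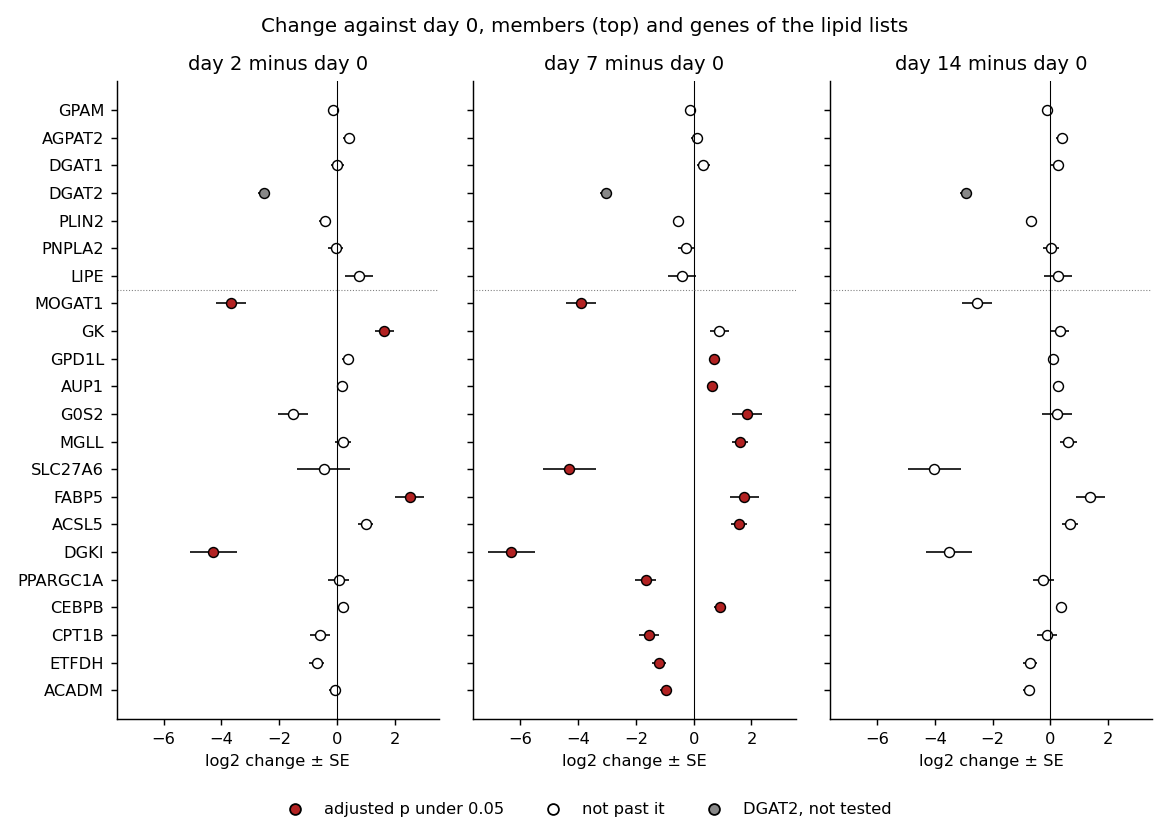
Log2 change against day 0 (horizontal axis, bars give the SE of the limma fit, n = 3 cows) on days 2, 7 and 14 for the 7 member genes with a probe (above the dotted line) and 15 genes of the lipid lists (below it), brightest probe of each. Red points passed an adjusted p of 0.05, white points did not, and DGAT2, in grey, was not tested. Red points are seen on days 2 and 7 and none on day 14.

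**Figure D4:**
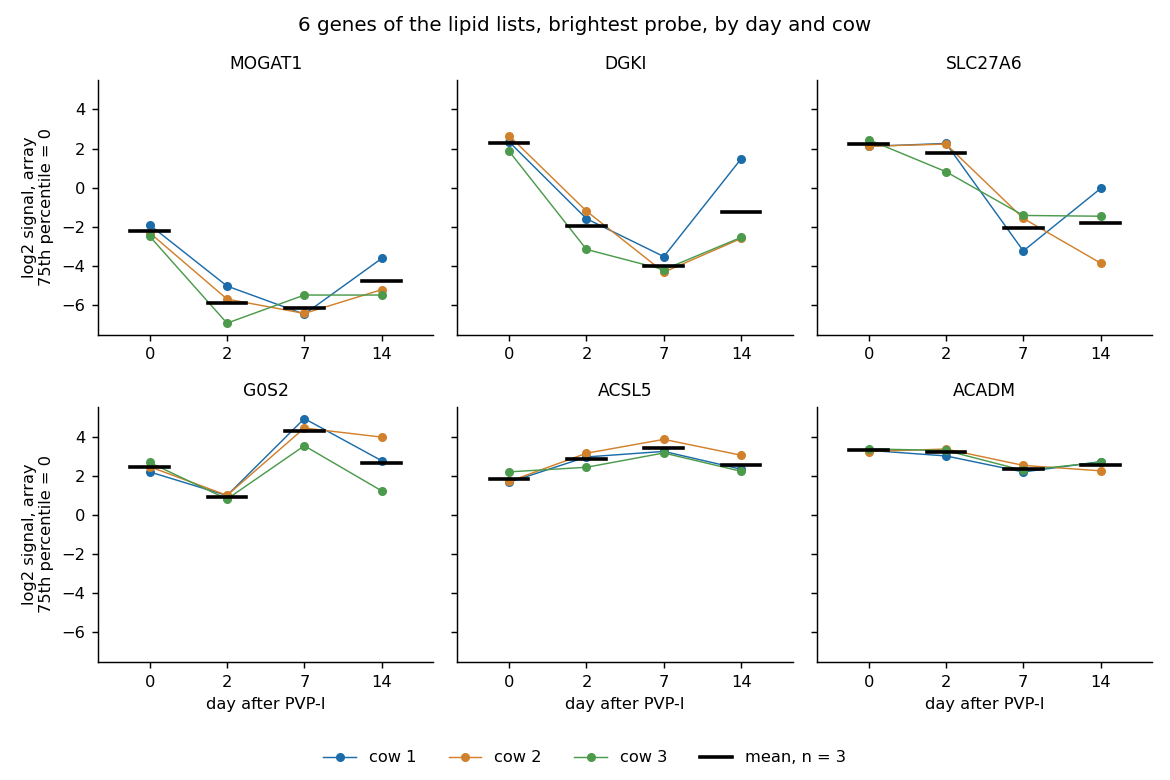
Log2 signal (vertical axis, 75th percentile of the array at 0) of the brightest probe of MOGAT1, DGKI, SLC27A6, G0S2, ACSL5 and ACADM on days 0, 2, 7 and 14 (horizontal axis), with 1 coloured line for each cow and a black bar for the mean of 3 cows. MOGAT1 and DGKI are lower on day 2 than on day 0 in all 3 cows, SLC27A6 and ACADM are lower on day 7, and the cows spread on day 14 for DGKI, SLC27A6 and G0S2.

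The 8 genes whose profile over the 12 arrays was most like that of DGAT2 were ranked by Pearson's correlation with its brightest probe, 1 probe a symbol. Of these, 6 were well above background on 12 of 12 arrays: a transcript the files name ENSBTAT00000009235 (0.962), CYP39A1 (0.960), an oxysterol hydroxylase of bile acid synthesis, SLF1 (0.949), a DNA repair factor, LOC789977 (0.948), ARHGAP44 (0.941), a GTPase-activating protein, and SPATA5L1 (0.937), an ATPase. The other 2, PMFBP1, a protein of the sperm neck in mice and people, and LOC100335534, were above background on the 3 day 0 arrays alone and passed the filter through that day, so their place in the ranking rests on 9 values at background and no correlation is given. All 8 had every later array below day 0. The ranking selects for this, so the values are a description, over 12 arrays that share cows and slides.

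CYP39A1 had 3.62, 3.02 and 4.31 (day 0), 1.67, 1.39 and 1.33 (day 2), 0.29, 0.85 and 0.58 (day 7), and 1.35, 1.44 and 0.50 (day 14). Its log2 change was -2.19 ± 0.38, -3.08 ± 0.38 and -2.56 ± 0.38 on days 2, 7 and 14. Those of ARHGAP44 were -1.73, -2.34 and -1.92, and those of SLF1 -0.97, -1.07 and -1.01. For PMFBP1 and LOC100335534 only bounds can be given. The signal of PMFBP1 was at least 1.75-fold lower on day 2, 2.11-fold on day 7 and 2.60-fold on day 14, and that of LOC100335534 at least 2.01-fold, 2.41-fold and 2.97-fold lower.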

How the data were processed

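Spot intensity values were made by the authors with Agilent Feature Extraction (11.5.1.1 per the file headers, though 10.5.1.1 in the submitters' processing notes), which subtracts background within an array and scales nothing across arrays. The authors' deposited value table is on a log2 scale, and no source used here says how it was made. Comparison with the scanner files gave the rule: log2 processed intensity, less the 75th percentile of the array, less the median of the probe, within a median absolute difference of 0.0031. Its scale, centring and direction rest on that comparison alone. Column medians, for cows 1 to 3, were 0.01, -0.03 and -0.07 (day 0), 0.05, -0.06 and 0.03 (day 2), 0.08, -0.02 and 0.003 (day 7), and -0.03, 9.7e-05 and 0.02 (day 14).

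Control spots (1417) and 31 probes with outlier flags were left out. Log2 processed intensity was set relative to each array's 75th percentile (825 to 1119), and the 33539 probes well above background on at least 3 of 12 arrays were kept. None was saturated; precision is limited by the number of arrays. The fit used limma 3.58.1 under R 4.3.3, with a day factor and a cow block over all 12 arrays (6 residual degrees of freedom, 2.33 prior), adjusted by Benjamini-Hochberg with a threshold of 0.05. A ± beside a log2 change is its SE. The script was tested on simulated data. The cows pair the samples by the design text, and after the mean of each day was taken off, 18 pairs of arrays of 1 cow had a mean correlation of 0.285 (lowest 0.0235). The brightest probe stood for a gene. Of 43653 probes, 20595 were named through their own and 1610 through another accession in a RefSeq table (ARS-UCD2.0, names only), 9847 carried a current and 372 an older symbol, and 11229 kept the file's name. Members, lists and tests were chosen with earlier results of these data known. Named were every member, at most 3 called genes a list that moved the same way in 3 of 3 cows (those with the largest change), and the 8 genes most like DGAT2. AGPAT1, SLC27A3, VLDLR, PLIN1, PLIN3, MOGAT2, PPARG, SREBF1 and PGR were named after their values were seen. Alternatives were another scaling, background correction, filter, block, sample set, array weights, sample names and source of values, and leaving out each cow.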

Additional observations from a re-analysis of the deposited data

How the results depend on the processing

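For the named genes of the lipid lists, 143 values under an alternative kept direction and call, 79 kept the direction and lost the call, and 9 changed direction. With the sample names of the file links, 0, 0 and 237 probes were called on days 2, 7 and 14 against day 0 (338, 1775 and 2836 at an unadjusted p under 0.05), 0 on day 7 against day 2 (1400), 215 on day 14 against day 7 and 123 by the F-test, with 0, 0 and 1 of the 83 lipid genes. There DGAT2 had log2 changes of -0.15, -0.13 and -1.38 against day 0, 0.025 on day 7 against day 2 and -1.25 on day 14 against day 7. Opposite signs were found there for MOGAT1 (0.60), FABP5 (-0.63) and DGKI (1.90) on day 2, and for GPD1L (-0.19), MGLL (-0.58), FABP5 (-0.17), CEBPB (-0.27), CPT1B (0.012) and ETFDH (0.038) on day 7; the cause of the disagreement in names was not tested. The other DGAT2 probes gave -2.16, -2.73, -2.09 and, on day 14 against day 7, 0.64 (base 2322), and -2.08, -2.63, -2.06 and 0.57 (base 2302). Normexp with quantile normalisation gave DGAT2 -2.19 and -2.55 on days 2 and 7 and -0.36 on day 7 against day 2, 811 probes on day 14, 431 on day 7 against day 2, 461 on day 14 against day 7, 1 other member on each of days 7 and 14 (PLIN2) and 2 lipid genes on day 14. Quantile normalisation alone gave 104 probes on day 14, 32 on day 14 against day 7 and 2 lipid genes on day 2. Probes above background on all 12 arrays gave 278, 265 and 273 calls on day 14, day 7 against day 2 and day 14 against day 7, and no filter gave 529 on day 2, 4 on day 14, 51, 7, and 1448 by the F-test, with 2 lipid genes on day 2. The fit with no replicate block gave 427 probes on day 2, 18 on day 14 against day 7 and 1569 by the F-test, with 2 lipid genes on day 2 (12 on day 7). Fits of only the 2 days compared, with fewer residual degrees of freedom, called 396 and 1905 probes on days 2 and 7, 0 on day 14, 0 on day 7 against day 2 and 0 on day 14 against day 7 (5033, 4799 and 5231 at an unadjusted p under 0.05), with 6 lipid genes on day 7. Array weights, whose estimation did not converge, gave 5084, 10431 and 351 probes against day 0, 10134 on day 7 against day 2 with 2 other members (PNPLA2 and LIPE), 9387 on day 14 against day 7 with 1 (LIPE), 20587 by the F-test, and 18 and 30 lipid genes on days 2 and 7. Leaving out a cow, or the day 2 array of cow 3, gave DGAT2 -2.66 to -2.36, -3.11 to -2.94 and -3.23 to -2.68 on days 2, 7 and 14, -0.58 to -0.45 on day 7 against day 2 and -0.11 to 0.26 on day 14 against day 7. Probes called ranged from 0 to 825, 0 to 6731, 0 to 56, 0 to 2166 and 0 to 142 in the same order and from 0 to 3284 by the F-test, lipid genes from 0 to 2 on day 2 and 0 to 19 on day 7, and other members from 0 to 1 on day 7 and on day 7 against day 2 (LIPE without cow 3). The alternatives for the F-test and for the count of lipid genes were chosen after seeing the data. A low signal over background limits MOGAT1, MGLL, WNT11, PMFBP1 and LOC100335534, which were not well above background on every array. The same holds for a further probe each of SLC27A6, ACSL5, DGKI, PPARGC1A, ETFDH, CEBPB and GPD1L that was tested beside the brightest.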

Other observations

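In the gene order of the RefSeq table, WNT11, a secreted Wnt ligand, lies near DGAT2 on chromosome 15 beyond UVRAG, and it was looked at after its values were seen. Its probe was well above background on 3, 2, 0 and 1 of 3 arrays on days 0, 2, 7 and 14, and WNT11 was at least 8.26-fold lower on day 7 than on day 0 (limma adjusted p = 0.0148). In that comparison 8.32% of all genes were called lower. WNT11 was also lower in 3 of 3 cows on day 2 (adjusted p = 0.147) and on day 14 (0.0885, limma), without passing, and no size is given for these days because not all arrays measured it. UVRAG, a gene of autophagy between these genes, was not above background on any array. On the other side of DGAT2, the probe named MOGAT2 went the other way. It was higher than on day 0 in 3 of 3 cows on days 2, 7 and 14 (log2 changes 0.54, 0.45 and 0.56), with no call.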
